A study of Mus musculus with 14 samples.

Results

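The comparison described here sets the RARα peaks listed for 266-6 cells treated with AM+CD beside those listed for the same cells treated with CD3254. A peak counted as matched when at least 1 bp of it was covered by the other treatment's list. The members are all 227 peaks of the AM+CD list and all 493 peaks of the CD3254 list, 720 of the 1529 peaks in the 5 lists of the series. 266-6 is a mouse pancreatic acinar cell line, and every treatment was given to this 1 line. RARα was profiled by CUT&RUN, in which a nuclease tethered to an antibody releases the DNA around the bound protein. Per the labels, every group was kept for 24 h in stripped medium and for the following 24 h in ligand or DMSO. The groups are AM+CD (3 samples), CD3254 (3), AM580 (2), 9-cis retinoic acid (3) and DMSO (3). The 3 groups named last serve here to show where else a place was listed, and the AM580 list is also set beside AM+CD once. The sources used here give no doses. The labels do not spell out AM+CD. Its peak names join the abbreviations used in the AM580 and CD3254 lists.

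RARα is a nuclear receptor for retinoic acid that pairs with a retinoid X receptor (RXR) on DNA. The heterodimer recognises direct repeats of a short half-site, and a ligand on either partner can change which co-repressors or co-activators the pair carries. AM580 activates RARα selectively, and CD3254 is a selective RXR agonist. Setting AM+CD beside CD3254 therefore asks what the RARα peak list looked like once an RARα agonist was present with the RXR agonist. Retinoic acid receptors are known in the pancreas for their part in the development and differentiation of its cells.

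A peak met the promoter window of 6 genes in these lists, from 250 bases before to 50 after the start site in RefSeq's GRCm38.p6 table, and the sequences of 3 are shown because they are the places where the lists can be set beside regulatory sequence. Gm40237, a long non-coding RNA gene, had the only window met in both lists. Gm40369 held the best-ranked of the 5 windows met in the CD3254 list alone. Duxf3, a double homeobox gene, had the only one of those 5 that held a half-site. Capitals mark half-sites, searched on both strands in the spellings AGGTCA or GGGTCA, with AGTTCA or GGTTCA as further spellings. The Gm40237 window is chr4:118547156-118547455 on the plus strand, and for the other two the 250 bases before the start site are given, at chr6:47652651-47652900 (plus strand) and chr10:58233090-58233339 (minus strand).
Gm40237: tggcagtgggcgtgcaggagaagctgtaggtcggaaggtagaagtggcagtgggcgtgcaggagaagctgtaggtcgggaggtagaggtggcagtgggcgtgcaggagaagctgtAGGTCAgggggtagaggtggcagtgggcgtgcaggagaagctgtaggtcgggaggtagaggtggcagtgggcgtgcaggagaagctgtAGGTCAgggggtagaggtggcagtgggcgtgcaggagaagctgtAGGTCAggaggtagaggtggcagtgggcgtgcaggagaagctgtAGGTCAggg
Gm40369: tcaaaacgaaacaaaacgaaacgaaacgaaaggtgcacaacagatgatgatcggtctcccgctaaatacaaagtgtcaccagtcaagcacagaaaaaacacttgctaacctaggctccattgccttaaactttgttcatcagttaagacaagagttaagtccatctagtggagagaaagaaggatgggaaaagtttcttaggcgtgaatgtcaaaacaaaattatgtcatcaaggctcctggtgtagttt
Duxf3: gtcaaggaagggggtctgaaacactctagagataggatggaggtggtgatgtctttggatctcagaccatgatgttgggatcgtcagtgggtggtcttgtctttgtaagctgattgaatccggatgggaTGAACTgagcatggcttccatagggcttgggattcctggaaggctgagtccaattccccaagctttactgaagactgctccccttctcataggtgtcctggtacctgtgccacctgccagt

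The Gm40237 window is a tandem repeat. The letters AGGTC stood in it 7 times, each 44 bases after the one before, and in 4 of the 7 copies the next base was A, which completes a half-site. Over all 32851 promoter windows of the table, 0.581% held at least 4 half-sites and 43.7% held at least 1. The window was met by a peak 1491 bp wide with AM+CD (rank 73 by −log10 q, fold 15.0) and by one 1492 bp wide with CD3254 (rank 78, fold 14.4). All 3 other lists also had a peak there. The summits lay outside the window, 569 bp (AM+CD) and 572 bp (CD3254) past the start site. These folds therefore belong to sequence that is not printed above. Fold is the authors' enrichment of a peak's summit over its local background. Each fold, −log10 q and rank describes a peak within its own list and was not compared as a measure of binding between lists.

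The other 5 windows were met by CD3254 peaks with no AM+CD peak. The Gm40369 peak (rank 187, fold 13.0) covered the last 100 bases of its window, and AM580 and DMSO had a peak there too. The Duxf3 peak (rank 330, fold 4.34) reached only 13 bases into the window, at the end far from the start site, so the half-site printed above lay outside the peak. The windows of Gm9758, 4931408C20Rik and AY761185 held no half-site. The summit of each of these peaks lay outside the window that the peak met. None of the 6 windows held the half-sites as a direct repeat with a spacing of 1, 2 or 5 bases, the spacings at which RAR and RXR are known to bind. In the table as a whole 0.222%, 0.268% and 0.0974% of windows did. No peak of either list met any of 1005 miRNA hairpins of the RefSeq table.

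Almost everything listed with AM+CD was also listed with CD3254, while more than 1 in 2 CD3254 peaks had no AM+CD peak. Of 227 AM+CD peaks, 219 met a CD3254 peak (96.5%, 95% Wilson interval 93.2 to 98.2), and the other 8 were unmatched, which is 3.52% of the list. Of 493 CD3254 peaks, 221 met an AM+CD peak (44.8%, 40.5 to 49.2), and 272 were unmatched, which is 55.2% of the list. Matched one to one, the 227 AM+CD peaks would leave at least 266 CD3254 peaks unmatched (54.0%), so the list lengths set most of the CD3254 count. The AM+CD list covered 160 kb and the CD3254 list 280 kb. Background coverage, recovered from the folds and p-values as fragments per base, was 2.13 with AM+CD and 2.36 with CD3254.

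The intervals cover counting error only, and peaks of 1 repeat array are not independent of each other. Each treatment has 1 list, so the difference between the lists has no replicate check and no test was possible. An unmatched peak is one with no listed partner. Peak numbers in both lists run in genome order with gaps, up to 701 for the 227 AM+CD peaks and up to 895 for the 493 CD3254 peaks. At 266 of the 272 unmatched CD3254 places a number was missing from the AM+CD list between its neighbouring peaks, and together the gaps had room for at most 257 of the 272. Whether a peak was called there and then left out of the AM+CD list cannot be told from the list. The same holds for all 8 unmatched AM+CD peaks in the CD3254 numbering.

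The unmatched peaks lay low in their own lists. In the CD3254 list, ranked by −log10 q, 2 of the best 100 peaks were unmatched, then 31 of the next 100, 62 of those ranked 201 to 300, 88 of those ranked 301 to 400 and 89 of the last 93. The best 83 CD3254 peaks were all matched. In the AM+CD list the best 215 were all matched, and the 8 unmatched peaks stood between ranks 216 and 227. When each list was limited to its 227 best peaks, 47 AM+CD peaks and 46 CD3254 peaks were unmatched. Lists of equal length with one-to-one matches must give nearly equal counts, so only their size, and not their balance, describes the data.

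**Figure D1:**
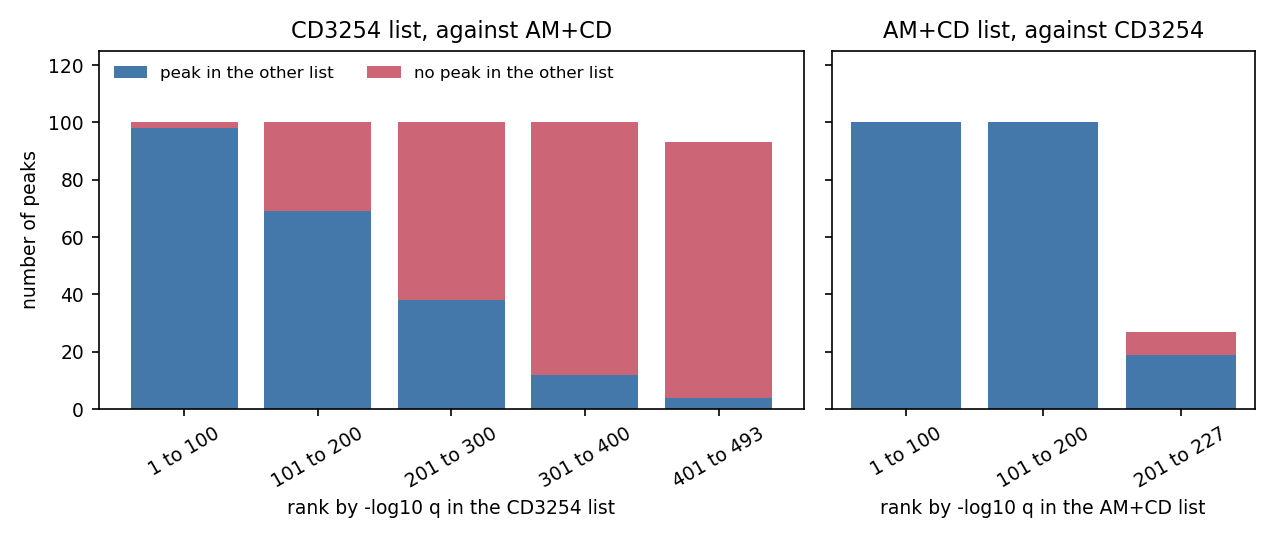
Number of peaks (vertical axis) with and without a peak in the other list, in bins of rank by −log10 q within the CD3254 list (left) and the AM+CD list (right). The unmatched part grows from 2 of 100 to 89 of 93 CD3254 peaks, and all 8 unmatched AM+CD peaks are in the last bin.

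At matched places the peaks were laid out alike. There were 221 pairs, of which 217 joined 1 peak of each list, and 2 AM+CD peaks each met a pair of CD3254 peaks. The summits of a pair were a median of 9 bp apart, and in 194 of 221 pairs (87.8%) they were within 50 bp. In 59 pairs the peaks began at the same base. Among one-to-one pairs the median width was 545 bp in both lists, and the CD3254 peak was the wider in 138 and the AM+CD peak in 75. Across these 217 pairs the ranks in the lists gave a Spearman rank correlation of 0.987, and across the 95 pairs at single places (outside high-signal regions, contigs and clusters) 0.980. The points are places of the same genome with the same mappability and repeat content, so these are descriptions.

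The matched places of best rank among single places were led by chr12:3109872-3110199 (AM+CD coordinates), with no gene within 50 kb. It stood at rank 6 in both lists (fold 40.3 with AM+CD and 39.6 with CD3254). The next lay in the span of Mdga2, a gene for a synaptic adhesion regulator (chr12:67059167-67059927). It stood at rank 18 with AM+CD and 16 with CD3254. With AM+CD the summit at chr12:3109872-3110199 held 8312 fragments over a local background of 205, against 1626 over 58.5 at Mdga2. The peaks at ranks 5 and 7 of both lists lay in high-signal regions. Whether chr12:3109872-3110199 is a further region of high signal was not tested. A place in the span of Cldn34d, a claudin family gene, was at rank 24 in both lists. A place 21051 bp from Ly6c2, a surface antigen gene of the Ly6 family, was at ranks 26 and 30. The place 35072 bp from Pak3, which codes for a p21-activated kinase, was at ranks 35 and 28. Kctd16, which codes for an auxiliary subunit of GABA-B receptors, held a place in its span at ranks 34 and 38. Places 14745 bp from Dpy19l2 and 8361 bp from P4ha2, the latter coding for a collagen prolyl hydroxylase subunit, had ranks of 44 and 39 with AM+CD and of 39 and 45 with CD3254. The other two were chr12:74803866-74804571 (ranks 38 and 35) and chr18:3004266-3006751 (rank 40 in both lists), with no protein-coding gene within 50 kb. In these 10 matched places the summit pileup ran from 316 to 8312 fragments with AM+CD and from 434 to 8962 with CD3254. None of these genes belongs to the lists of retinoid genes used below.

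The 8 unmatched AM+CD peaks were small, with summits of 11 to 27 fragments and folds of 3.84 to 7.04. The best of them, at rank 216, lay in the span of Peak1, a gene for a cytoskeleton-associated pseudokinase (chr9:56223572-56224048, fold 7.04, 21 fragments), and AM580 and 9-cis retinoic acid also had a peak there. The peak in the span of Fetub, which codes for the liver protease inhibitor fetuin B (chr16:22928509-22928838), had a fold of 5.44 from 16 fragments and was in no other list. A peak 759 bp from Arhgap25 (chr6:87457478-87457785), had a fold of 4.16 from 12 fragments and was listed with AM580 too. A peak 20221 bp from Rchy1, a ubiquitin ligase gene (chr5:91928245-91928621), had a fold of 5.76 and no partner elsewhere. The peak 6544 bp from 4930467E23Rik (chr8:19760147-19760657, fold 5.21) stood in a dense cluster and was listed with DMSO. The other 3 had no protein-coding gene within 50 kb. They were chr14:91970932-91971411 (fold 6.40), chr12:60390208-60390604 (fold 5.44) and chr14:68276858-68277175 (fold 3.84), and none of them was in another list. In all, 2 of the 8 places were in the AM580 list, and 5 were in none of the AM580, DMSO and 9-cis retinoic acid lists.

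The 272 unmatched CD3254 peaks had a median fold of 5.49 and a median summit of 38 fragments, against 9.62 and 211 for the 221 matched ones. Fold, summit and −log10 q come from the same call, so these values are not independent of rank. Fold did not follow rank closely. The CD3254 peak at rank 7 had a fold of 3.61, and the one at rank 84 had a fold of 28.8. The unmatched peaks were also narrower, with a median width of 373 bp against 546 bp. Among CD3254 peaks under 300 bp wide, 75 of 84 were unmatched (89.3%, 80.9 to 94.3), against 197 of 409 wider ones (48.2%, 43.4 to 53.0). At single places the counts were 43 of 48 and 79 of 169. None of the 8 unmatched AM+CD peaks was under 300 bp.

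**Figure D2:**
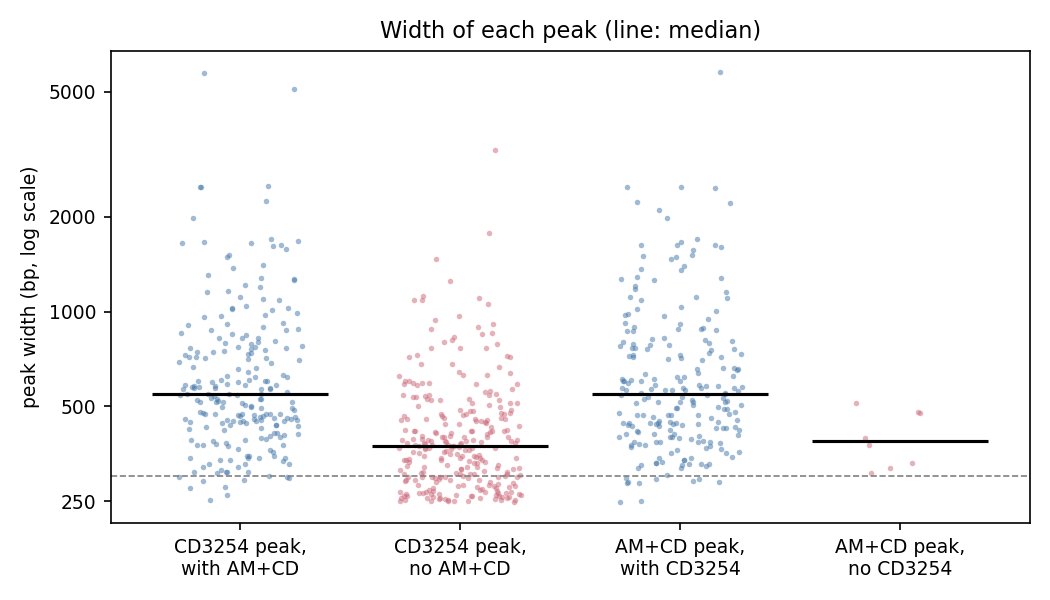
Width of every CD3254 and AM+CD peak in bp (log scale), split by whether the other list has a peak at the place. Each point is 1 peak, the black line is the median and the dashed line marks 300 bp, and the unmatched CD3254 peaks have the lowest median (373 bp) and hold most of the points under the dashed line.

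The unmatched CD3254 peak of best rank at a single place was chr16:98107444-98107698, at rank 84, with a fold of 28.8 and a summit of 200 fragments. It had no protein-coding gene within 50 kb, was 255 bp wide and was in no other list. The next, 9350 bp from Fam107a, a gene for an actin-associated stress protein (chr14:8286635-8286920), stood at rank 85 with a fold of 26.0 and was listed with AM580 and DMSO. That place was therefore held by the AM580, CD3254 and DMSO lists and not by AM+CD.

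Several of the next were narrow peaks within gene spans that no other list held. They included Pknox1, a homeobox transcription factor gene (chr17:31570414-31570674, rank 115, fold 22.3), and Litaf, a gene for an endosomal membrane protein induced by lipopolysaccharide (chr16:10975068-10975320, rank 124, fold 20.8). Mamdc2, a MAM domain gene, held another (chr19:23357428-23357689, rank 160, fold 18.1). At Litaf no number was missing between the neighbouring AM+CD peaks, so the AM+CD call held no peak there that could have been left out. The peak in the span of C1qbp, a gene for a mitochondrial matrix protein (chr11:70979401-70979650, rank 168, fold 16.8), was listed with DMSO as well.

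Further down the same list of 20 stood peaks 9994 bp from Myl12b, a myosin regulatory light chain gene (rank 178, fold 15.5), and in the span of Asmt, which codes for the last enzyme of melatonin synthesis (rank 181, fold 14.9). AM580 and DMSO held both. The peaks 13036 bp from Mob3b, a kinase activator family gene (rank 183, fold 15.0), and 1669 bp from Cdc20, a gene for an activator of the anaphase-promoting complex (rank 207, fold 14.3), were in no other list. Over the 20 best unmatched CD3254 peaks at single places, folds ran from 9.86 to 28.8 and widths from 250 to 460 bp. Of the 20, 8 were also in the AM580 list, 9 in the DMSO list, 1 in the 9-cis retinoic acid list and 10 in none of them. Of the 11 under 300 bp wide, 9 were in none. The part of peak width in these results was not tested. In 10 of the 20 no protein-coding gene lay within 50 kb. Of these, chr14:37856001-37856268 (rank 121), in the span of Gm5204, chr4:153153033-153153283 (rank 156), in that of Gm31055, chr12:93576990-93577253 (rank 159) and chr2:57629489-57629740 (rank 174) were in no other list. AM580 and DMSO held chr8:15519795-15520095 (rank 188) and chr7:59769769-59770150 (rank 204), the latter in the span of the non-coding RNA gene Snhg14. The place at chr6:3201227-3201686 (rank 177) was in all 3 other lists, and chr16:86820782-86821146 (rank 199), in the span of Gm32624, was in the DMSO list. The 5 best unmatched peaks of any place included 1 peak on an unplaced contig at rank 109 (914 bp wide, fold 2.55).

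The places next considered are those where each agonist alone had a listed peak and DMSO had none. AM+CD lacked 33 of these 44 CD3254 peaks (75.0%, 60.6 to 85.4). Of CD3254 peaks shared with DMSO and not AM580 it lacked 22 of 30 (73.3%, 55.6 to 85.8), and of those in neither list it lacked 163 of 170 (95.9%, 91.7 to 98.0). Where both AM580 and DMSO had a peak it lacked 54 of 249 (21.7%, 17.0 to 27.2). Adding 9-cis retinoic acid to those holders left 7 of 166 lacking (4.22%). The intervals for places held by 1 of AM580 and DMSO overlap each other. The groups were not compared at equal rank, and the unmatched count rose from 2 of the best 100 CD3254 peaks to 89 of the last 93. The part of rank in these shares was not tested, so their order is a description. Single places gave 14 of 17, 8 of 12, 81 of 85 and 19 of 103 for the same 4 holders. The DMSO list (286 peaks) had 1.32 fragments per base of background and the 9-cis retinoic acid list (200 peaks) 0.544. Both are shallower than CD3254 (2.36), so absence from them is absence of a listed peak only. The part of that depth in these shares was not tested.

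**Figure D3:**
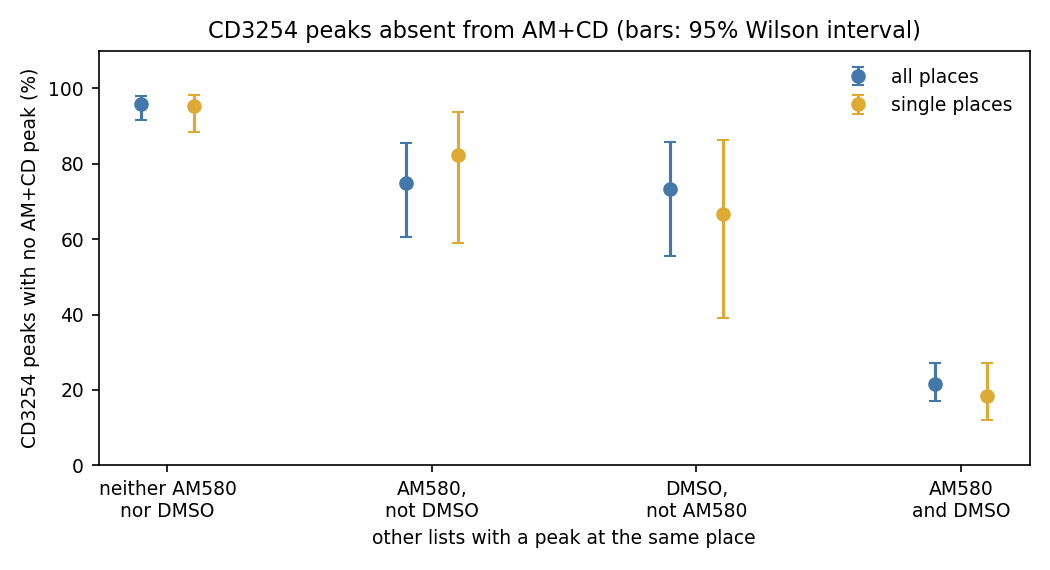
Share of CD3254 peaks with no AM+CD peak (percent), by which of the AM580 and DMSO lists also held the place, over all places and over single places, with 95% Wilson intervals. The share is 95.9% where neither held it and 21.7% where both did, with the places held by 1 of them in between.

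The 14 unmatched single places of that AM580 and CD3254 group included Slc22a29, an organic anion transporter family gene (chr19:8252234-8252528, fold 10.4), and Tmem67, a gene of the ciliary transition zone (chr4:12048579-12048970, fold 9.92). Others lay in the spans of Cldn14, a tight junction claudin gene (chr16:93993011-93993381, fold 6.74), Eppk1, which codes for epiplakin (chr15:76103665-76104201, fold 4.51), and Gpt2, which codes for a mitochondrial alanine aminotransferase (chr8:85499603-85499891, fold 5.03). A peak 3009 bp from Zfp629, a zinc finger gene, had a fold of 7.74. The best of the 14, at chr1:157877238-157877610, had a fold of 22.9 and no gene within 50 kb. Against these 14, AM+CD kept 3 single places of the same kind. They were the span of Gtf2ird1, a transcription factor gene (chr5:134378867-134379210, fold 11.8 with CD3254), chr4:64497804-64498257 (fold 17.4) and chr3:97462238-97462586 (fold 8.60), the latter pair with no gene within 50 kb.

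A few matched places were in the CD3254 and AM+CD lists and in no other, 7 CD3254 peaks and 6 AM+CD peaks. The strongest lay in the span of 2210408I21Rik (chr13:77438910-77439160 with AM+CD) at rank 83 with AM+CD (fold 27.1) and rank 65 with CD3254 (fold 28.1), and it was 251 bp wide with AM+CD. A place 15781 bp from Jazf1, a zinc finger co-regulator gene (chr6:53084405-53084875 with AM+CD), had folds of 7.07 and 7.35. One 46273 bp from Slc1a4, a neutral amino acid transporter gene, had 4.80 and 6.14.

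Seen from the RARα agonist alone, the AM+CD list was again nearly contained. Of 227 AM+CD peaks, 20 had no AM580 peak (8.81%, 5.78 to 13.2), 205 met a peak in both the AM580 and the CD3254 list (90.3%) and 6 met neither. Containment was not particular to the agonist lists. DMSO also had a peak at 202 of the 219 AM+CD peaks matched with CD3254 (92.2%). Of the 221 matched CD3254 peaks, 203 were in the DMSO list (91.9%) and 159 in all 3 other lists (71.9%). Of 323 AM580 peaks, 114 had no AM+CD peak (35.3%, 30.3 to 40.7). The AM580 list came from a shallower call, with 0.985 fragments per base of background. The part of that depth in the AM580 counts was not tested.

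Fewer than 1 in 2 peaks of either list stood at single places. Peaks were sorted first into 7 known regions of high signal (satellite blocks and other repeats, ribosomal RNA genes and mitochondrial DNA with a nuclear copy). The rest fell on contigs with no position on a main chromosome, in dense clusters or at single places. A cluster had at least 3 places with gaps of up to 100 kb. Of CD3254 peaks 44.0% and of AM+CD peaks 44.9% were at single places. The unmatched share of CD3254 peaks was 70.4% (62.9 to 76.9) in clusters, 56.2% (49.6 to 62.7) at single places, 35.0% (25.5 to 45.9) on contigs and 23.5% (12.4 to 40.0) in high-signal regions. Of 162 CD3254 peaks in clusters, 30 were in 1 cluster, and of 80 on contigs, 22 were on 1 contig. Such peaks are not independent, so the intervals do not serve to compare the classes. The classes also differed in rank. Matched CD3254 peaks had a median rank of 209 in clusters, 114 at single places, 93.5 on contigs and 16.5 in high-signal regions. For unmatched ones the medians were 358.5, 357.5, 265.5 and 230 in the same order. The part of rank in the unmatched shares of the classes was not tested. Single places held 7 of the 8 unmatched AM+CD peaks and a cluster held the other. The 51 contig peaks and 26 high-signal peaks of the AM+CD list were all matched.

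**Figure D4:**
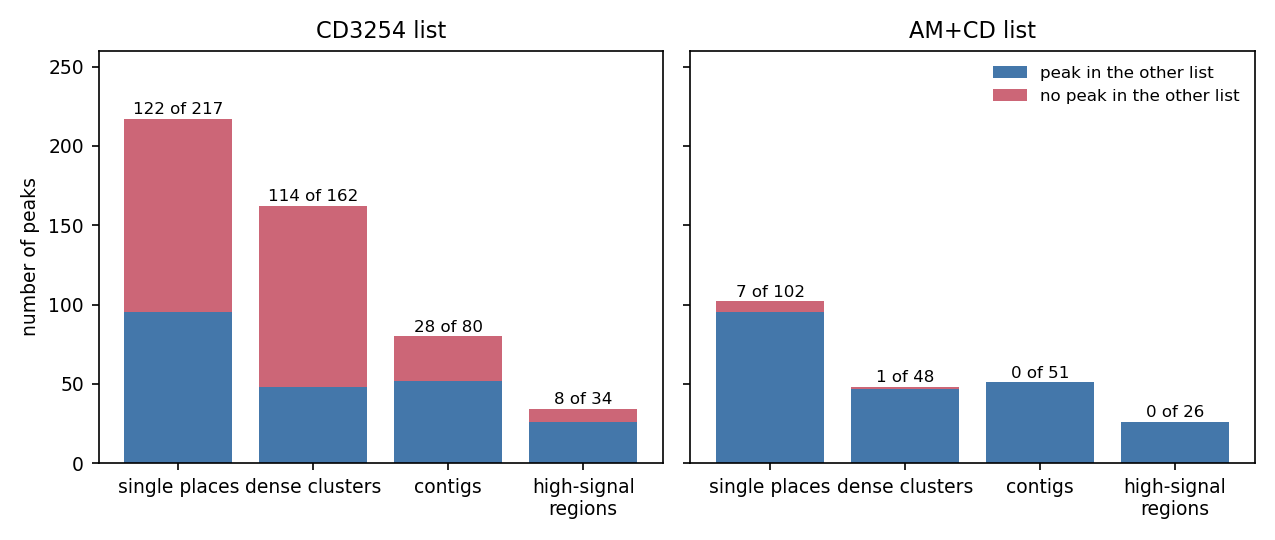
Number of CD3254 peaks (left) and AM+CD peaks (right) at single places, in dense clusters, on contigs and in high-signal regions, with and without a peak in the other list. The label over each bar gives the unmatched count of the total, from 114 of 162 CD3254 peaks in clusters to 0 of 51 AM+CD peaks on contigs.

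All 22 clusters held CD3254 peaks and 18 held AM+CD peaks. The largest, chr8:20275231-20682577 around Gm15319, Gm40469 and Gm21119, had 30 CD3254 peaks of which 4 were matched. On chromosome 5 the cluster at chr5:15462575-15712262, around Speer4d and Speer4c of a duplicated testis-expressed family, had 14 CD3254 peaks and no AM+CD peak. Its neighbour at chr5:14914439-15054880, around Speer4e, had 14 of which 2 were matched. The AM+CD numbering left 34, 35 and 52 numbers missing between the listed peaks that flank these 3 clusters, more than the 26, 14 and 12 unmatched peaks in them. The Sfi1 cluster (chr11:3100379-3199462), around a gene for a centrosomal protein, had 11 CD3254 peaks with 2 matched, and the Duxf3 cluster (chr10:58221687-58239725) had 6 with 1 matched.

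Some other clusters were matched in larger part. All 4 CD3254 peaks around Tmem267 (chr13:119596687-119602990) and all 3 at chr17:13550680-13655299 were matched, as were 5 of 6 at chr2:181917359-182013201, 8 of 13 at chr17:3006812-3082404 and 7 of 10 at chr4:3050069-3091220. By contrast, clusters at chr10:3109893-3116987 and chr16:3231587-3236350 had 2 of 5 and 1 of 3 matched. Within the first 3.5 Mb of the main chromosomes, 32 of 79 CD3254 peaks and 0 of 46 AM+CD peaks were unmatched.

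Unmatched peaks were most numerous on the chromosomes with the large clusters. On chromosome 8, 57 of 68 CD3254 peaks were unmatched (83.8%), and on chromosome 5, 32 of 38 (84.2%). Chromosome 7, with 13 of 15 (86.7%), and chromosome 1, with 12 of 15, were as high on fewer peaks. Chromosome 9, which holds a satellite block at its start, had 8 of 32 (25.0%), and chromosome 3 had 3 of 14 (21.4%). Of 4 mitochondrial CD3254 peaks, 3 were unmatched.

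**Figure D5:**
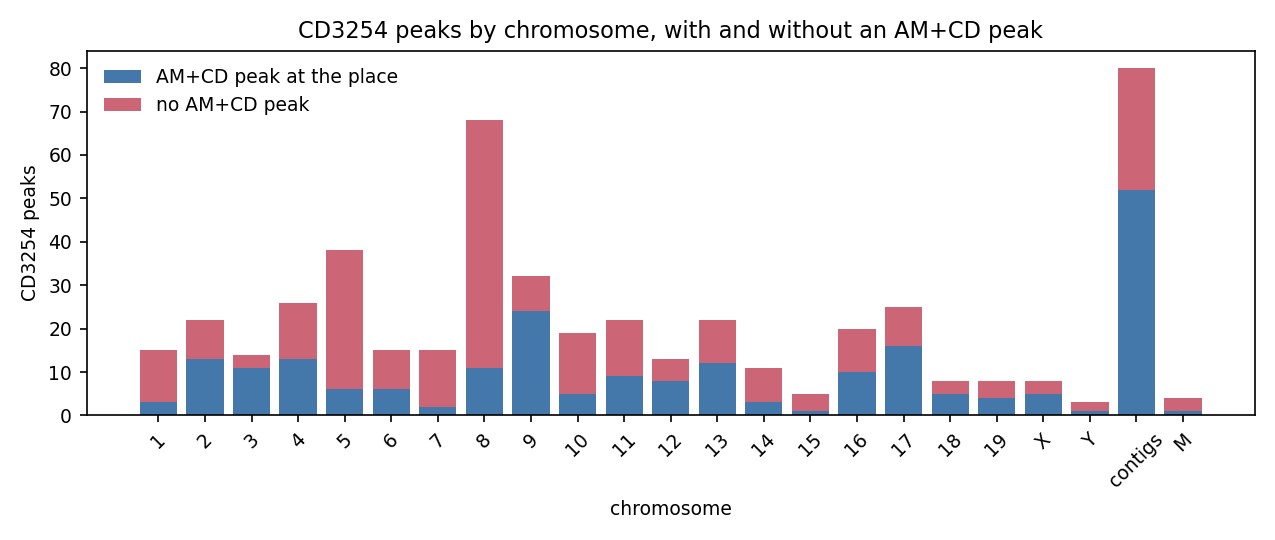
Number of CD3254 peaks on each chromosome, on contigs with no position on a main chromosome and on the mitochondrial genome (M), with and without an AM+CD peak at the place. Chromosomes 5 and 8 have 32 and 57 unmatched peaks, while on chromosomes 3 and 9 most of the bar is matched.

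At single places, matched and unmatched peaks lay about as often in or near genes. A protein-coding gene span held 40 of 122 unmatched CD3254 peaks (32.8%, 25.1 to 41.5) and 36 of 95 matched ones (37.9%, 28.8 to 47.9), with overlapping intervals. A protein-coding gene lay within 50 kb of 70.5% of both. Over the main chromosomes, clusters included, such a gene lay within 50 kb of 71.8% of unmatched CD3254 peaks (65.8 to 77.1). For matched ones the share was 55.4% (47.8 to 62.7). These intervals do not overlap, but peaks of the same cluster are not independent of each other. The intervals therefore do not serve to compare matched with unmatched peaks. The part of clusters in this difference was not tested. The table gives gene spans without exons, so exons, introns and UTRs were not told apart.

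Of 21896 protein-coding genes, 138 had an AM+CD peak within 50 kb, which is 0.63%, and 313 had a CD3254 peak, which is 1.43%. The retinoid and pancreas genes were absent from both. None of 28 RAR target genes, such as Rarb and Cyp26a1, had a peak of either list within 50 kb. The nearest peak to Rarb was 2333 kb away in both lists. That to Cyp26a1, a retinoic acid hydroxylase gene, was 2807 kb away with CD3254 and 7948 kb with AM+CD. For Cyp26b1 the order was reversed, with 17069 kb for CD3254 and 2864 kb for AM+CD. The longer CD3254 list also has more peaks that can lie near a gene. The same count of 0 held for 20 genes of retinoid metabolism and transport, 28 of nuclear receptors and co-regulators, 18 targets of LXR and PPAR (partners of RXR), 14 pancreatic acinar genes such as Ptf1a, and 9 islet and duct genes. With lists this short, counts of 0 in lists of 9 to 28 genes are near the background shares. Fgf8, a growth factor gene among the RAR targets, had a peak 86.1 kb away in both lists.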

How the data were processed

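The labels name 14 samples in 5 treatments, and replicates of one treatment point to a single list, so each treatment counted as 1. Per the submitters' processing notes, reads were handled with tools that include MACS2 2.2.7.1, SAMtools 1.18 and Bowtie2 2.5.1, on mm10. The sources used here do not state the control, thresholds, duplicate handling or any pooling of replicates. The deposited lists give the authors' fold enrichment (a ratio), −log10 p and −log10 q for each peak, and a deposited score that was not used further.

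Positions have 1-based starts. Overlaps of at least 1 bp were counted in Python 3.11.15 with pandas 2.3.3 and scipy 1.17.1, with 95% Wilson intervals. Whole-number pileups and local backgrounds were recovered from fold and −log10 p within a relative 0.0002. The lowest background shared within a list served as its depth. Overlap and recovery were checked on simulated data. Genes came from RefSeq (GRCm38.p6), which mm10 names. Peaks named are all unmatched AM+CD peaks, the 20 best unmatched CD3254 peaks at single places and 5 of any place, and the 10 best matched single places. One of the 20 is not reported here by name. Other places were named after their values were seen. The members, gene lists and place classes were chosen with earlier results of these data known. Alternatives covered the overlap, a −log10 q minimum, list length, place classes, joining and gene distance.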

Additional observations from a re-analysis of the deposited data

How the results depend on the processing

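No paired analysis was possible because each treatment has 1 list and its replicates are not separate. With both lists limited to the 227 best peaks, 79.3% of AM+CD peaks and 79.7% of CD3254 peaks were matched, leaving 47 and 46 unmatched. With 100 peaks each, 96.0% were matched from both sides and 4 and 4 were unmatched. Without clusters, contigs and high-signal regions, 93.1% of AM+CD peaks were matched and 122 CD3254 peaks were not. Leaving out peaks under 300 bp, an alternative chosen after seeing the data, gave a matched CD3254 share of 50.9%. Genes near a peak numbered 258 (AM+CD) and 537 (CD3254) within 100 kb, and 66 and 149 within 10 kb. The other 26 values for the overlap and the gene counts stayed within their interval or within 1.5 times. These took in an overlap of at least 50%, the summit inside the other peak, gaps of 500 bp, a −log10 q of at least 5 and joining across 1000 bp. The lowest summits listed were 11 fragments with AM+CD and 12 with CD3254, and the part of depth in which peaks were listed was not tested.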
